A study of Mus musculus with 4 samples.

Results

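Rab GTPases are small membrane proteins that switch between a GDP-bound and a GTP-bound form. Each one marks a particular membrane compartment and recruits the proteins that move, tether or fuse vesicles there. Exchange factors load GTP, GTPase activating proteins trigger its hydrolysis, a prenyl tail holds the protein on the membrane and GDI proteins carry the inactive form through the cytosol. In pancreatic β-cells, Rab3 proteins, Rab27a and Rab37 are found on insulin granules, where they act in docking and release. Members were all genes on the array whose symbol is Rab followed by a number, with at most 1 letter from a to d and 1 more digit after it. This rule gave 57 genes of the 22916 genes with a symbol on the array, read by 89 of 56605 probes. The Rab3 genes, Rab27a, Rab27b and Rab37 made up the 7 secretory granule members, and the other 50 members work on other compartments.

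Gene expression had been measured on 4 one-color Agilent arrays to compare islet cells given MOTS-c, a peptide encoded in mitochondrial DNA, with islet cells given a scrambled peptide as the control. Both peptides were used at 10 μM for 24 h on handpicked, dispersed islets of C57BL/6 mice, labeled male and aged 60 weeks. Every array therefore carries cultured islet cells of old mice without a disease model. The scrambled group held replicates 1 and 2 and the MOTS-c group replicates 2 and 3. The labels name 4 littermates and do not say which animal gave which array, and the p-values here measure the spread between these arrays.

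Values are log2 signals, that is, log2 of the background-corrected spot intensity after quantile normalization, and they compare arrays for 1 probe and never 1 probe with another. A probe entered the test if it was well above its local background on at least 2 of the 4 arrays, which 35087 probes were. Of the 57 members, 53 had such a probe, and each was followed through its brightest one. Rab20, Rab27b, Rab38 and Rab7b were not well above background on any array, with spot signals between 0.814 and 1.52 times the local background, so no comparison was made for them. Of the secretory granule members 6 were tested, and of the other members 47.

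On each array 61.6% to 65.0% of 59305 gene spots were well above background and 0 were saturated. The precision is limited by the number of arrays, since 2 against 2 leave 2 residual degrees of freedom and the smallest two-sided p of an exact permutation test is 0.333. MOTS-c replicate 3 stood apart from the rest, at a Euclidean distance of 72.8 from the other MOTS-c array, while the scrambled arrays lay 60.7 from each other and 61.3 to 65.7 from MOTS-c replicate 2. Genes of the Y chromosome (Uty, Kdm5d, Ddx3y and Eif2s3y) have 7 probes here, and 0 of 28 readings rose well above background, while Xist did so on all 4 arrays although the mice are labeled male. Islet markers were present, with 7 of 8 β-cell, 3 of 4 α-cell and both δ-cell markers tested. Of the genes that define other cells, Krt19, Sox9 and Cftr of ducts, Cpa1, Prss2, Amy2b and Pnlip of acini, Cdh5 and Kdr of endothelium, Col1a1, Col3a1, Dcn, Pdgfrb and Rgs5 of mesenchyme and Ptprc, Adgre1 and Lyz2 of immune cells did not pass the background rule. Ucn3 and Pyy of islet cells also did not.

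Across the family, differences between the peptides went in both directions. Of 53 tested, 27 had a higher and 26 a lower mean with MOTS-c, and the median log2 fold change was 0.001, against -0.002 for the 15475 genes tested through their brightest probe. Adjusted p-values by limma stayed at 0.487 or above for the Rab genes, and 0 of them passed 0.05, where over all probes tested 0% did. At an unadjusted p under 0.05 by limma, 7 Rab genes differed (13.2%), beside 8.61% of all genes. The 7 include Rab25, which was not well above background with MOTS-c. Its p-value was set against background, so the 13.2% and the count of lower genes rest in part on it. Rab32, Rab39, Rab40b and Rab8b were higher, which is 4 genes where the share of all genes was 2.82%, and Rab25, Rab37 and Rab15 were lower, which is 3 genes where the share was 5.78%. The methods' t-test on the same values gave 6 higher and 3 lower at its unadjusted threshold and 0 after adjustment. No share of all genes is given here for that threshold. With limma and a change of at least 1.5-fold asked for as well, Rab32 and Rab25 remained, beside 4% of all genes. Rab25 passed the background rule only through the scrambled arrays, so the size of its difference is not known. With its MOTS-c level raised to the lowest signal well above background there, it was 1.34-fold, under 1.5-fold. Without Rab25, Rab32 would be the 1 gene left. The groups did not overlap in 22 Rab genes (41.5%), beside 42.5% of all genes, so this share was near the background. Changes were small for most of the family, with a median absolute log2 fold change of 0.11, against 0.14 over all genes. For 24 genes it was under 0.1, and for 33 of 53 the 95% interval of the change lay within 1.5-fold in either direction.

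**Figure D1:**
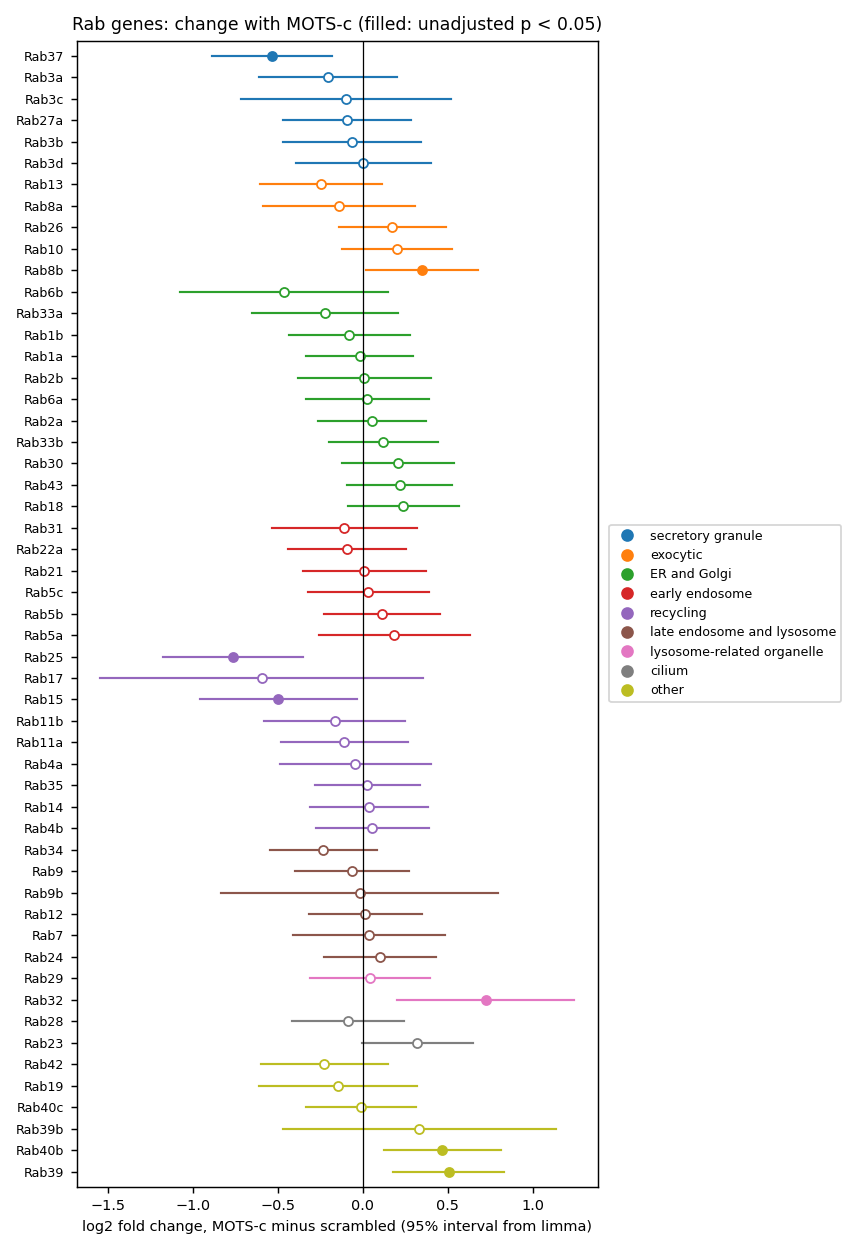
Log2 fold change (MOTS-c minus scrambled) of the 53 tested Rab genes, 1 row a gene, grouped and colored by compartment, with the 95% interval from limma as a line. The 7 filled points are the genes at an unadjusted p under 0.05, of which Rab25 was not above background with MOTS-c, and the other points, open, lie between -0.60 and 0.33.

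Promoter letters are shown for Rab32, Rab39 and Rab40b, the genes with the largest changes among those that were higher, and for Rab25, a lower gene that was well above background with the scrambled peptide alone. Each is the window of 250 bases before the annotated start (RefSeq, build GRCm38.p6), read along the gene from 5′ to 3′. Capitals mark motifs. A GC box has the letters GGGCGG. Another motif is known as the CCAAT box. The cAMP response element reads TGACGTCA, and the core of the antioxidant response element reads TGACNNNGC, where N is any base. Each was searched on both strands, and none of them overlaps another in these windows. The windows are Rab32 at chr10:10558208-10558457 (minus strand), Rab39 at chr9:53706233-53706482 (minus strand), Rab40b at chr11:121388252-121388501 (minus strand) and Rab25 at chr3:88548280-88548529 (minus strand).
Rab32: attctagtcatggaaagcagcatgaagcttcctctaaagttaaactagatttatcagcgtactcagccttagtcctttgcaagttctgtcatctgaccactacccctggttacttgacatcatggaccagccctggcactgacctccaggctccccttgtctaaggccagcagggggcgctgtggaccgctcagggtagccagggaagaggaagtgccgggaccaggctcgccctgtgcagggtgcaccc
Rab39: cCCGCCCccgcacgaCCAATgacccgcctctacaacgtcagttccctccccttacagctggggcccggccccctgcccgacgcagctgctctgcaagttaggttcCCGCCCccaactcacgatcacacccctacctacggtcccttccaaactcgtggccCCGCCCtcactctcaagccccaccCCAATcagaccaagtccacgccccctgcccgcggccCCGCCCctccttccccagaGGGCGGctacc
Rab40b: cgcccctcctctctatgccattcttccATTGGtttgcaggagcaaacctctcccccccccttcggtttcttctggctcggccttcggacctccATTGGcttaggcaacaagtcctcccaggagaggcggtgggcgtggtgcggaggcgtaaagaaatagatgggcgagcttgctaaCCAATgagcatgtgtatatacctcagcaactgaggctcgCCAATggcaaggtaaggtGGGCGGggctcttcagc
Rab25: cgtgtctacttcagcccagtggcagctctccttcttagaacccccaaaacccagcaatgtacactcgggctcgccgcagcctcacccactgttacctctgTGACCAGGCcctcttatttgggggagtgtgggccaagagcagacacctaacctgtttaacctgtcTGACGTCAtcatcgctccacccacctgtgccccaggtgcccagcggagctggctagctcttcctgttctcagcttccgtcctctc
None of these motifs is in all 3 windows of the higher genes. The Rab32 window holds none of these motifs, the Rab39 window holds 5 GC boxes and 2 CCAAT boxes and the Rab40b window 1 GC box and 4 CCAAT boxes. In the Rab25 window, TGACGTCA begins 85 bases before the start. TGACGTCA is held by 1.55% of the 32851 promoter windows that RefSeq gave, and of the 60 windows that belong to 48 of the 57 Rab genes 3.33% do. GC boxes are in 66.7% of Rab windows and 32.7% of all windows, CCAAT boxes in 40.0% and 33.9%, and the antioxidant response core in 11.7% and 10.2%. Rab windows are also richer in G and C, with a median of 60.2% against 52.4%, and these matches are a description of letters, not of binding.

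The secretory granule members were centered slightly below 0. Of the 6 tested, Rab37 was lower with MOTS-c at an unadjusted p under 0.05, 5 had a lower and 1 a higher mean, and 2 had groups without overlap. The 1 called gene is 16.7% of the 6, beside 8.61% of all genes, and the 2 without overlap are 33.3%, beside 42.5%. Their median log2 fold change was -0.10, against 0.01 for the 47 other Rab genes. The granule median was -0.02 without MOTS-c replicate 3, and -0.18 without either MOTS-c replicate 2 or scrambled replicate 2. Since these are RNAs of whole islet cell preparations, fewer cells of a type and less RNA per cell cannot be told apart. Over the 7 β-cell markers tested, the median change was -0.04 and the summed signal ran from 862472 to 887640 on the scrambled arrays and from 856288 to 858183 on the MOTS-c arrays. Most of this sum came from Ins1, Ins2 and Iapp. Quantile normalization holds such very bright probes nearly equal across arrays. Ins2, for example, read 18.545 on scrambled replicate 1 and on both MOTS-c arrays. The sum therefore cannot show whether the share of β-cells differed. Of the 7 β-cell markers, 3 had a higher mean with MOTS-c, at 0.161 for Mafa, 0.115 for Nkx6-1 and 0.072 for Iapp. The 4 with a lower mean were G6pc2 (-0.189), Ins1 (-0.039), Ins2 (-0.050) and Slc2a2. Slc2a2, the glucose transporter of β-cells, was lower at -1.33 (unadjusted p = 0.000277, adjusted p = 0.474, limma). It was well above background on both scrambled arrays and on 1 of the 2 MOTS-c arrays, so this size is uncertain, and the part of β-cell state in the Rab values was not tested.

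Rab37, a Rab of insulin and mast cell granules, had log2 signals of 11.68 and 11.88 on scrambled replicates 1 and 2 and of 11.27 and 11.21 on MOTS-c replicates 2 and 3. The MOTS-c values were both below the scrambled ones, and they differed from each other by less than the scrambled arrays did. The log2 fold change was -0.54 (SE 0.13, 95% interval -0.89 to -0.18), 1.45-fold lower, with an unadjusted p of 0.0119 and an adjusted p of 0.533 by limma. Without scrambled replicate 2 it was -0.44, with an unadjusted limma p of 0.0757. Only 1 probe reads this gene.

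Rab3a, the Rab3 form best known for holding granules ready at the plasma membrane, had log2 signals of 14.12 and 14.15 in the scrambled and 14.08 and 13.78 in the MOTS-c group through its brightest probe. The groups did not overlap, but MOTS-c replicate 2 lay close to the scrambled arrays and most of the difference came from replicate 3. Its log2 fold change of -0.21 (SE 0.15) had an unadjusted p of 0.245 and an adjusted p of 0.799 by limma. It was -0.05 without MOTS-c replicate 3 and -0.36 without MOTS-c replicate 2. A second probe of Rab3a read 10.39 and 10.47 with the scrambled peptide and 10.10 and 9.96 with MOTS-c. Through it both MOTS-c arrays were clearly lower, at a log2 fold change of -0.40 (SE 0.13, unadjusted p = 0.0291, adjusted p = 0.567, limma).

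For the remaining granule members the 95% interval of the change included 0. Rab3b read 10.68 and 10.92 in the scrambled and 10.84 and 10.64 in the MOTS-c group, a log2 fold change of -0.06 (95% interval -0.47 to 0.34). Rab3d, the form known from exocrine granules, read 10.51 and 10.67 against 10.71 and 10.47, a log2 fold change of 0.00 (95% interval -0.40 to 0.40). In both genes the groups overlapped. The sign turned for Rab3b without scrambled replicate 2 (0.05) or MOTS-c replicate 3 (0.04), and for Rab3d without scrambled replicate 1 (-0.08) or MOTS-c replicate 2 (-0.12). Rab3c had the widest interval of the 6, from -0.72 to 0.52, with 11.65 and 11.34 with the scrambled peptide and 11.13 and 11.67 with MOTS-c. Its highest value was on a MOTS-c array and its lowest on the other, and the change of -0.10 became 0.17 without MOTS-c replicate 2 and 0.06 without scrambled replicate 1. Rab27a, which tethers granules to the plasma membrane through its effectors, read 9.31 and 9.15 in the scrambled group and 9.23 and 9.03 with MOTS-c, a log2 fold change of -0.09 (95% interval -0.47 to 0.29) that was 0.01 without MOTS-c replicate 3. A dimmer probe of Rab27a gave -0.30 (unadjusted p = 0.13, limma), with MOTS-c values of 5.45 and 5.33 below the scrambled values of 5.84 and 5.53. Rab27b, its close relative, could not be compared, since both of its probes were at 0.842 to 1.09 times the local background.

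**Figure D2:**
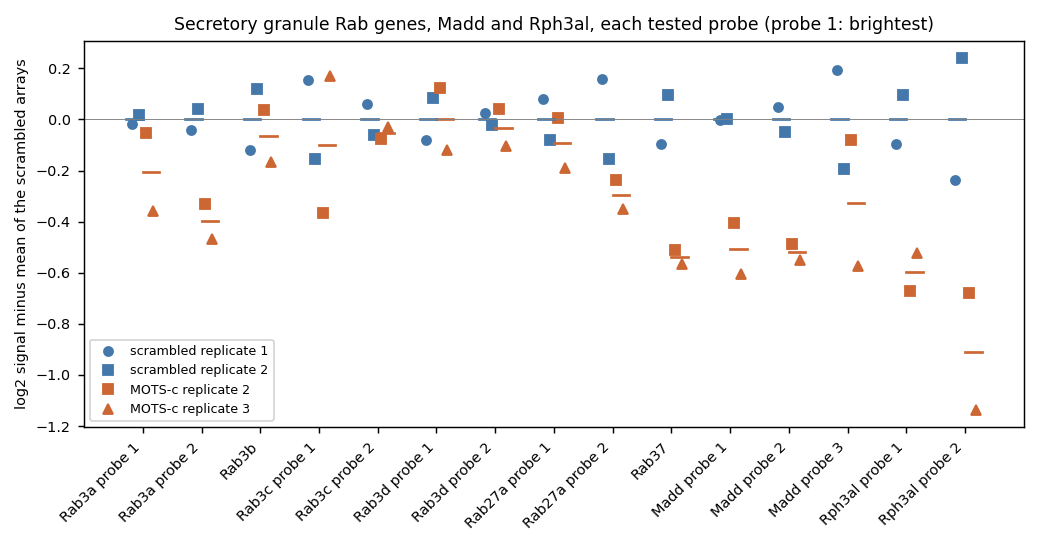
Log2 signal of each array minus the mean of the scrambled arrays, for every tested probe of the secretory granule Rab genes and of their regulators Madd and Rph3al, with group means as lines. Rab37, the second Rab3a probe, Madd probes 1 and 2 and both Rph3al probes have both MOTS-c arrays at least 0.3 below the scrambled mean, while Rab3b and Rab3d lie around 0.

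Among the other Rab genes, Rab32 had the largest rise. It acts in the making of lysosome-related organelles such as melanosomes and is also found at contacts of the endoplasmic reticulum with mitochondria. Its log2 signals were 7.11 and 7.45 with the scrambled peptide and 8.18 and 7.83 with MOTS-c. Both MOTS-c arrays were above both scrambled arrays, by at least as much as the scrambled arrays differed from each other. The log2 fold change was 0.72 (SE 0.20, 95% interval 0.20 to 1.25), 1.65-fold, with an unadjusted p of 0.0167 and an adjusted p of 0.539 by limma. It was 0.56 without scrambled replicate 1 (unadjusted p = 0.084) and 0.55 without MOTS-c replicate 2 (unadjusted p = 0.0599, limma). The methods' t-test on the same values gave an unadjusted p of 0.0967. Rab29, a relative of Rab32, read 8.90 and 9.01 against 8.92 and 9.08 and did not differ beyond its spread (0.04, 95% interval -0.31 to 0.39). Rab38, of the same branch, was not well above background. Of the melanocyte and mast lineage genes that go with such organelles, 3 of 3 were tested and none had an unadjusted p under 0.05 (beside 8.61% of all genes). Their summed signal was 2984 to 3599 on the scrambled and 2663 to 3385 on the MOTS-c arrays.

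Rab39, a Rab of late endosomes and phagosomes, read 7.88 and 7.76 in the scrambled group and 8.35 and 8.30 with MOTS-c. The MOTS-c arrays were close to each other and above both scrambled arrays. This gave a log2 fold change of 0.51 (SE 0.12), 1.42-fold, with an unadjusted p of 0.0114 and an adjusted p of 0.526 by limma. Without scrambled replicate 2 it was 0.45 with an unadjusted p of 0.074. Rab39b is its paralog, best known from neurons. The log2 signals of Rab39b were 10.17 and 9.72 with the scrambled peptide and 9.91 and 10.65 with MOTS-c, so that the groups overlapped. The log2 fold change of 0.33 (SE 0.31, unadjusted p = 0.329, limma) became -0.04 without MOTS-c replicate 3 and 0.70 without MOTS-c replicate 2 (unadjusted p = 0.0439).

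Rab40b, which carries a SOCS box and acts with ubiquitin ligases, read 9.02 and 8.91 with the scrambled peptide and 9.51 and 9.36 with MOTS-c. The groups were apart by more than either group's own spread. The log2 fold change was 0.47 (SE 0.13), 1.38-fold, with an unadjusted p of 0.0183 and an adjusted p of 0.541 by limma. Without scrambled replicate 1, scrambled replicate 2 or MOTS-c replicate 2 the change was 0.52, 0.41 and 0.39, with unadjusted p-values of 0.057, 0.1 and 0.075. Its paralog Rab40c stood at 12.20 and 12.30 against 12.28 and 12.21, a log2 fold change of -0.01 (95% interval -0.33 to 0.32).

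Rab8b, one of a pair of Rabs that carry vesicles from the Golgi to the plasma membrane, had log2 signals of 10.33 and 10.40 in the scrambled and 10.65 and 10.77 in the MOTS-c group. The groups did not overlap and each was tight. The log2 fold change was 0.35 (SE 0.13), 1.27-fold, with an unadjusted p of 0.0433 and an adjusted p of 0.615 by limma. With any 1 array left out the change stayed between 0.29 and 0.41 and its unadjusted p rose to between 0.0656 and 0.177. The second probe of Rab8b gave 0.33 (unadjusted p = 0.152), with 6.54 and 6.27 against 6.92 and 6.55. Rab8a, the other form, read 11.27 and 11.35 in the scrambled group and 11.35 and 10.98 with MOTS-c, a log2 fold change of -0.14 (unadjusted p = 0.444, limma). The difference between the forms was not tested.

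Rab23, a ciliary Rab known from Hedgehog signaling, lay just outside the threshold. It read 8.93 and 9.01 with the scrambled peptide and 9.33 and 9.24 with MOTS-c, a log2 fold change of 0.32 (unadjusted p = 0.0525, limma). Its second probe read 8.42 and 8.20 against 8.58 and 8.03, a log2 fold change of -0.003, so the probes of this gene did not show the same difference.

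**Figure D3:**
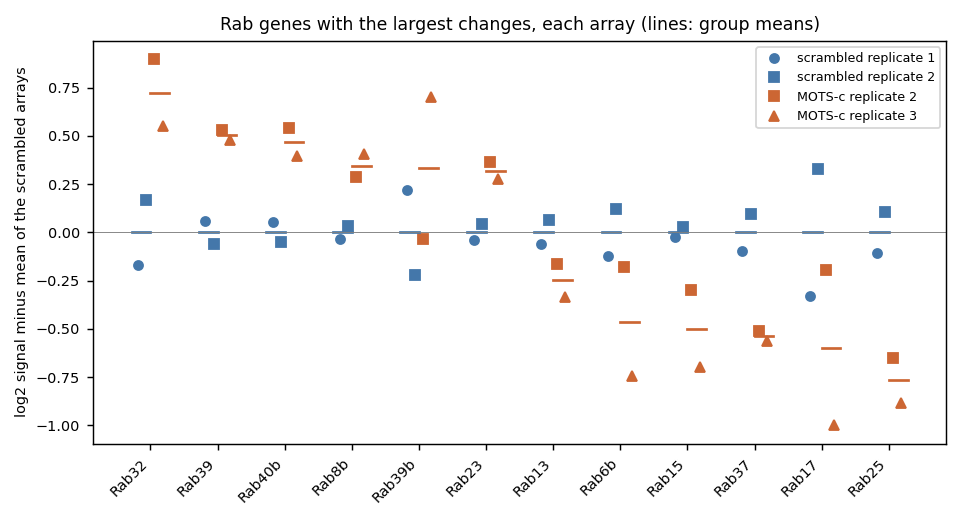
Log2 signal of each of the 4 arrays minus the mean of the scrambled arrays, for the 6 Rab genes with the largest rises and the 6 with the largest falls, with group means as lines. In Rab32, Rab39, Rab40b, Rab8b and Rab23 both MOTS-c arrays are above both scrambled arrays, the MOTS-c points of Rab25 are not above background, and in Rab17, Rab6b and Rab15 MOTS-c replicate 3 is farther from the scrambled arrays than MOTS-c replicate 2 is.

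Rab25, counted among the lower genes, was measured on the scrambled side only. It belongs to the Rab11 branch and serves apical recycling in epithelia. Its log2 signals were 3.97 and 4.19 with the scrambled peptide and 3.43 and 3.20 with MOTS-c. The probe is dim, well above background on both scrambled arrays and on neither MOTS-c array, so the MOTS-c level is not known. With that level raised to the lowest signal called well above background there, the scrambled signal was 1.34-fold higher. Spots are called against their local background, so 1.34-fold is not a sure minimum. The log2 fold change was -0.20 with the normexp background correction. The adjusted p of the limma fit was 0.487. Its unadjusted p of 0.00557 was set against a level not above background, and it was 0.0975 with the normexp background correction and 0.07 with an intensity trend in limma. Its relatives Rab11a and Rab11b had log2 fold changes of -0.11 (95% interval -0.49 to 0.27) and -0.17 (95% interval -0.58 to 0.25), with overlapping groups.

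Rab15, which acts in endocytic recycling, read 10.91 and 10.97 in the scrambled group and 10.64 and 10.24 with MOTS-c. Both MOTS-c arrays were lower, replicate 3 by more than replicate 2. By group means the log2 fold change was -0.50 (SE 0.18, 95% interval -0.96 to -0.04), with an unadjusted p of 0.0398 and an adjusted p of 0.606 by limma. It was -0.30 without MOTS-c replicate 3 (unadjusted p = 0.136), and without scrambled replicate 1 or 2 its unadjusted p was 0.11 and 0.139. The methods' t-test gave 0.13.

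Rab17, a Rab of polarized epithelia that serves transcytosis, had a log2 fold change of -0.60 (SE 0.36) with an unadjusted p of 0.164 and an adjusted p of 0.753 by limma. Its log2 signals were 9.48 and 10.14 with the scrambled peptide and 9.62 and 8.81 with MOTS-c. MOTS-c replicate 2 lay between the scrambled arrays, so the groups overlapped and the difference was in replicate 3. The second probe showed the same order, with 8.06 and 8.66 against 8.17 and 7.34 and a log2 fold change of -0.60 (unadjusted p = 0.154, limma). Without MOTS-c replicate 2 the change was -1.0 (unadjusted p = 0.033), and without MOTS-c replicate 3 it was -0.19. Beside these epithelial Rabs, the ductal markers Krt19, Sox9 and Cftr were not tested for lack of signal, and Spp1 stood at -0.001. Of 8 acinar markers 4 were tested, and their summed signal was 3663 to 4010 on the scrambled arrays and 2093 to 2590 on the MOTS-c arrays, nearly all of it from Cela1 (log2 fold change -0.76, unadjusted p = 0.00649). The part of duct or acinar cells in the Rab values was not tested.

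Rab6b, the Golgi form best known from neurons, read 8.98 and 9.22 with the scrambled peptide and 8.92 and 8.35 with MOTS-c. The groups were barely apart, and replicate 3 held most of the difference. The log2 fold change of -0.46 (SE 0.23, unadjusted p = 0.108, limma) was -0.75 without MOTS-c replicate 2 (unadjusted p = 0.0158) and -0.18 without MOTS-c replicate 3. Its relative Rab6a read 14.83 and 14.63 against 14.70 and 14.81, with a log2 fold change of 0.03. Rab13, which acts at tight junctions, read 8.70 and 8.83 in the scrambled and 8.60 and 8.43 in the MOTS-c group. Both MOTS-c values were lower, at a log2 fold change of -0.25 (unadjusted p = 0.133, limma), and its second probe gave -0.21.

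By compartment, the Rabs of the general traffic routes had few values far from 0. None of the 11 Rabs of the endoplasmic reticulum and Golgi had an unadjusted p under 0.05, beside 8.61% of all genes. Their median log2 fold change was 0.03, and 6 (54.5%, beside 42.5% of all genes) had groups without overlap. Groups of this size cannot tell 0 genes from that 8.61%. Rab1a, which controls transport from the endoplasmic reticulum to the Golgi, read 14.62 and 14.54 with the scrambled peptide and 14.57 and 14.55 with MOTS-c, with a 95% interval of -0.33 to 0.30. Rab18, a Rab of the endoplasmic reticulum and lipid droplets, and Rab43, a Golgi Rab, had all MOTS-c values above all scrambled values, at log2 fold changes of 0.24 (unadjusted p = 0.119) and 0.22 (unadjusted p = 0.127, limma), short of the threshold.

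The 6 early endosome Rabs also had no gene at an unadjusted p under 0.05 (beside 8.61% of all genes). They had 0 with groups apart (beside 42.5% of all genes), at a median of 0.02. Rab5a, Rab5b and Rab5c, which govern fusion of early endosomes, stood at 0.19, 0.11 and 0.03. The 6 late endosome and lysosome Rabs had a median of -0.003. Rab7, the main Rab of late endosomes, read 12.50 and 12.86 against 12.66 and 12.77 (0.04, 95% interval -0.41 to 0.48), and Rab34 had the largest value among them, -0.23 (unadjusted p = 0.112). The 9 recycling Rabs had a median of -0.11, and beside Rab25, Rab15 and Rab17 their values lay near 0, such as 0.03 for Rab35 (95% interval -0.28 to 0.33) and -0.05 for Rab4a. In the exocytic group of 5 the median was 0.17, with Rab10 at 0.20 (12.87 and 12.76 against 13.02 and 13.02) and Rab26 at 0.17 beside Rab8b, while Rab13 at -0.25 and Rab8a at -0.14 had lower means. The groups of Rab10 and Rab26 did not overlap, and their unadjusted p-values by limma were 0.17 and 0.209. Rab28 of the cilium stood at -0.09 and the less studied Rab19 and Rab42 at -0.15 and -0.23, each with a 95% interval that included 0. No test was made between compartments.

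For 27 Rab genes more than 1 probe was tested, and the probes of a gene can be set against each other. In Rab3a, Rab7 and Rab42 they are annotated to different transcripts, so they need not read the same RNA. In 17 of the 27 genes all probes had the same direction and in 10 they did not. None of the 10 had a gap of 1.5-fold between probes. The median gap over the 27 genes was 0.08 on the log2 scale and the largest was 0.32, in Rab23, followed by Rab31, an early endosome Rab with -0.11 and -0.42. Of the 7 genes at an unadjusted p under 0.05 only Rab8b had a second tested probe, so the changes of Rab32, Rab39, Rab40b, Rab25, Rab37 and Rab15 each rest on 1 probe.

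**Figure D4:**
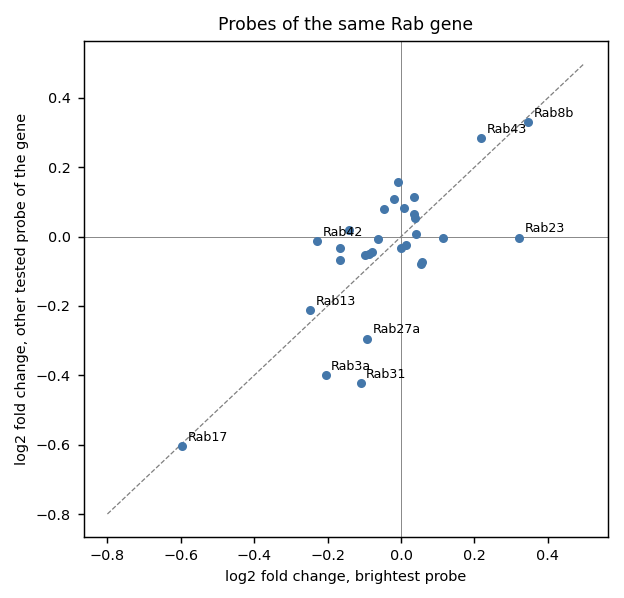
Log2 fold change of every other tested probe (vertical axis) against that of the brightest probe of the same Rab gene (horizontal axis), with the line of equal values dashed. Rab17 and Rab8b lie on the line, Rab3a, Rab27a and Rab31 below it, and Rab23 has 0.32 through the brightest probe and -0.003 through the other.

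Replicates of a Rab gene usually lay close to each other. The larger of its 2 within-group differences had a median of 0.19 on the log2 scale over the 53 genes, against 0.23 over all genes. It was above 0.5 in 5 genes, at 0.81 for Rab17, 0.74 for Rab39b, 0.64 for Rab9b, 0.56 for Rab6b and 0.54 for Rab3c. Rab9b, a late endosome Rab, read 13.52 and 12.88 with the scrambled peptide and 12.88 and 13.48 with MOTS-c. In Rab9b, Rab39b and Rab3c scrambled replicate 1 and MOTS-c replicate 3 were both above the other 2 arrays, so their variation ran across the treatments. A change of treatment was not detectable in them at this spread, with 95% intervals as wide as -0.84 to 0.80 for Rab9b. Rab9, the main form, had an interval of -0.40 to 0.27.

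**Figure D5:**
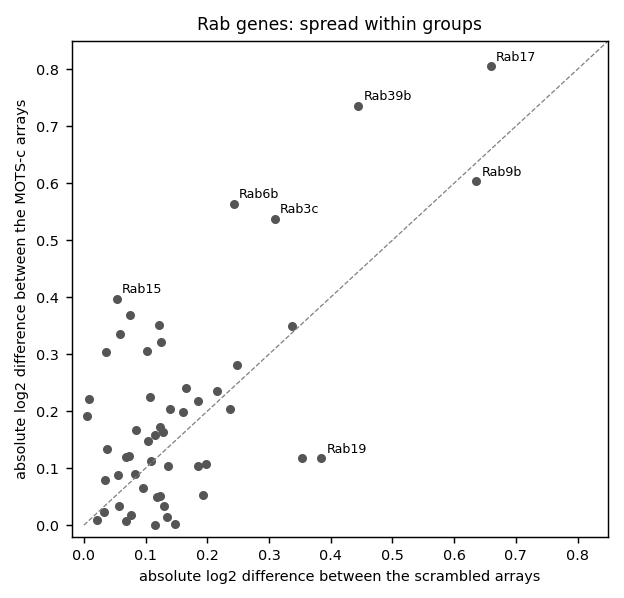
Absolute log2 difference between the MOTS-c arrays (vertical axis) against that between the scrambled arrays (horizontal axis), 1 point for each of the 53 Rab genes, with the line of equal values dashed. Rab17, Rab39b, Rab9b, Rab6b and Rab3c are the 5 genes above 0.5 on either axis.

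The proteins that load, unload, carry and read Rabs were followed through a list of 97 genes, of which 93 were tested. Of these, 51 had a higher and 42 a lower mean with MOTS-c, at a median log2 fold change of 0.02. By limma 0 had an adjusted p under 0.05, and 7 (7.53%, beside 8.61% of all genes) had an unadjusted p under 0.05, where the methods' t-test gave 4 higher and 5 lower. By limma Unc13d was the 1 higher gene of the 93, where the share of all genes was 2.82%. Madd, Rph3al, Mical1, Rin1, Micall2 and Tbc1d16 were the 6 lower ones of the 93, where the share of all genes was 5.78%. Lower calls also outnumbered higher ones over all genes, at 895 against 437. For the t-test no share of all genes is given here. Groups were without overlap in 47 of the 93 (50.5%, beside 42.5% of all genes).

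Madd, an exchange factor for Rab3 proteins and Rab27a, read 12.55 and 12.56 with the scrambled peptide and 12.15 and 11.95 with MOTS-c. The scrambled arrays were nearly equal and both MOTS-c arrays lay lower. In limma the log2 fold change was -0.51 (SE 0.13), with an unadjusted p of 0.0151 and an adjusted p of 0.538 by limma. Its other probes gave -0.52 (unadjusted p = 0.00998) and -0.33 (unadjusted p = 0.229). Without scrambled replicate 1, scrambled replicate 2 or MOTS-c replicate 3 the unadjusted p of the brightest probe was 0.0687, 0.0705 and 0.0632, at changes of -0.51, -0.50 and -0.41.

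Rph3al, an effector of Rab3 and Rab27 proteins in granule release, read 11.97 and 12.16 in the scrambled group and 11.40 and 11.54 with MOTS-c. Both MOTS-c values were well below both scrambled values. By group means the log2 fold change was -0.60 (SE 0.14, unadjusted p = 0.00994, adjusted p = 0.516, limma), and -0.50 without scrambled replicate 2 (unadjusted p = 0.0635). Its second probe gave -0.91 (unadjusted p = 0.0163). Values of the other readers of granule Rabs were more mixed. Sytl4, which docks insulin granules, read 13.85 and 13.72 in the scrambled group and 12.91 and 13.97 in the MOTS-c group, where 1 array was the lowest of all and the other the highest. Its log2 fold change was -0.34 (unadjusted p = 0.397, limma), and it was -0.87 without MOTS-c replicate 3 (unadjusted p = 0.0061) and 0.18 without MOTS-c replicate 2, so its direction rests on 1 array. Rims2, a scaffold of release sites, stood at 0.20 (95% interval -0.46 to 0.85) and Myrip, which links Rab27a to myosin, at 0.09 (95% interval -0.39 to 0.57). Rims2 turned to -0.07 without scrambled replicate 2 and -0.006 without MOTS-c replicate 3, and Myrip to -0.11 without MOTS-c replicate 2. Rph3a and Mlph, further effectors, had the lowest means relative to scrambled, at -1.12 (unadjusted p = 0.0955) and -1.04 (unadjusted p = 0.109, limma). Rph3a read 6.48 and 6.27 against 6.05 and 4.46, and Mlph 7.52 and 7.99 against 7.46 and 5.96. In both genes MOTS-c replicate 3 was far below every other array. Exph5, Rims4, Sytl2 and Sytl3 were not well above background on enough arrays. Over the 11 granule effectors tested the median was -0.13, with 4 higher and 7 lower means. Unc13d, a priming factor that binds Rab27, is a dim gene with 4.66 and 4.58 against 5.26 and 5.05, a log2 fold change of 0.54 (unadjusted p = 0.0131). It was 0.18 (unadjusted p = 0.108) with the normexp background correction, and its unadjusted p was 0.085 with the limma trend, 0.0729 without scrambled replicate 2 and 0.0548 without MOTS-c replicate 2.

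Of the effectors and exchange factors of other Rabs, Mical1, an actin oxidizing enzyme that binds Rab proteins, read 10.05 and 9.70 in the scrambled and 8.65 and 9.15 in the MOTS-c group. Both MOTS-c arrays were lower, at a log2 fold change of -0.97 (SE 0.23, unadjusted p = 0.00987, adjusted p = 0.516, limma), and without scrambled replicate 1 it was -0.80 (unadjusted p = 0.0519). The methods' t-test gave an unadjusted p of 0.0849. Its other probes disagreed, with 0.00 and -0.50 (unadjusted p = 0.0151). Rin1, an exchange factor for Rab5, read 5.12 and 4.97 against 4.46 and 4.30. This dim gene had a log2 fold change of -0.67 (SE 0.14, unadjusted p = 0.00573, adjusted p = 0.491, limma), which was -0.20 (unadjusted p = 0.108) with the normexp correction. Micall2, an effector of Rab13, and Tbc1d16, a GTPase activating protein, were lower by -0.56 (unadjusted p = 0.0346) and -0.35 (unadjusted p = 0.0411), with groups apart in both. Without scrambled replicate 1, scrambled replicate 2 or MOTS-c replicate 3 the unadjusted p was 0.118, 0.105 and 0.106 for Micall2 and 0.152, 0.133 and 0.151 for Tbc1d16, which had 0.0571 without MOTS-c replicate 2 and 0.0605 with the 75th percentile shift. The change of Micall2 was -0.33 without MOTS-c replicate 3, and its unadjusted p was 0.131 by the methods' t-test and 0.0652 with no filter on dim probes. A second probe of Tbc1d16 gave -0.39 (unadjusted p = 0.0255).

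The enzymes and carriers shared by all Rabs had no gene at an unadjusted p under 0.05 among the 7 tested, beside 8.61% of all genes. A group of 7 is too small to tell 0 from that share. Gdi2, which extracts inactive Rabs from membranes, had a log2 fold change of 0.15 (95% interval -0.17 to 0.47). Rabggta and Rabggtb, the subunits of the transferase that adds the prenyl tail, stood at -0.12 and 0.27 (unadjusted p = 0.103), and Chm, which presents Rabs to it, at 0.02 with a 95% interval of -0.93 to 0.98. Chm was -0.48 without MOTS-c replicate 3, -0.12 without scrambled replicate 2 and 0.53 without MOTS-c replicate 2, and Rabggta was 0.06 without MOTS-c replicate 3. Rab3gap1 and Rab3gap2, which together act on Rab3 and Rab18, stood at 0.08 and 0.15, and Tbc1d4, a GTPase activating protein of Rab8, Rab10 and Rab14, at 0.00 (95% interval -0.34 to 0.34). The sign turned for Rab3gap1 without MOTS-c replicate 2 (-0.005) and for Tbc1d4 without scrambled replicate 2 (-0.06) or MOTS-c replicate 2 (-0.04).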

How the data were processed

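Islet cells were profiled on 4 one-color Agilent arrays, 2 per peptide. The RNA had been amplified and labeled with Cy3, and spots were read with Feature Extraction (version 11.0.1.1). The authors deposited for each spot an intensity (gProcessedSignal) from which the software had removed the background, with no normalization across arrays. A series table of theirs repeats these intensity values, at a ratio of 0.995 to 1.005 to the scanner files. The methods drop probes with a Flag A without a definition, and the background rule was used in its place.

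Control spots (3671 per array) and outlier spots (96 to 131) were removed. Spots of a probe were averaged as log2 values. A probe had to be well above background on 2 or more arrays, whatever the group. The 35087 probes left were quantile normalized and fitted with limma (version 3.58.1, in R 4.3.3), with Benjamini-Hochberg adjustment over all of them. limma added 2.64 degrees of freedom to the 2 residual ones. Symbols were looked up by accession in RefSeq genes (GRCm38.p6), where 59 genes meet the naming rule, 2 of them (Rab36 and Rab44) without a probe here. The array is annotated on another build, so coordinates are given for promoter windows of GRCm38.p6 only. Each gene was followed through its brightest probe.

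Named genes were the 7 granule Rabs, Rabs at an unadjusted p under 0.05, the 6 largest rises and falls, a fixed set of regulators and those regulators at an unadjusted p under 0.05 with 1.5-fold. Unc13d, Micall2, Tbc1d16, Rph3a and Mlph and the Rabs given as relatives or compartment examples were named after their values were seen. A few genes of these lists are not reported here. The members, lists and tests were chosen with earlier results of these data known. No slide block was fitted, since the arrays share 1 slide. Alternatives were a 75th percentile shift, normexp with an offset of 50 on median spot signals, the series table, no filter or a strict filter (all 4 arrays) on dim probes, limma with a trend, the t-test of the methods, mean or median over a gene's probes, and leaving out each array. The steps were tested on simulated data.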

Additional observations from a re-analysis of the deposited data

How the results depend on the processing

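Under every alternative that gave a test, 0 Rab genes had an adjusted p under 0.05. The 2 Rab genes at an unadjusted p under 0.05 with 1.5-fold became 0 with normexp and 1 with the strict filter, with the methods' t-test and with the limma trend, and 2 to 5 when 1 array was left out. The 4 higher Rab genes became 8 with no filter on dim probes and 1 to 3 with 1 array left out (1 without either scrambled array), and the 3 lower ones became 1 to 5 (1 without scrambled replicate 2, 5 without MOTS-c replicate 2). Of the regulators and effectors, the 1 higher gene became 6 with normexp, 4 with no filter, 4 with the t-test and 2 with the trend, and the 6 lower ones became 10 with the trend and 2 to 11 with 1 array left out (2 without either scrambled array, 11 without MOTS-c replicate 2). For these counts no share of all genes under each alternative is given here. A change in them therefore cannot be told apart from a change in calls over the whole array. The median change of the other Rab genes was -0.014 in place of 0.013 with the 75th percentile shift. The cause was not tested. Rab3d turned to -0.008 with the percentile shift, -0.003 with the series table and -0.016 with the mean or the median over its probes. With 1 array left out the change ran from -0.119 to 0.121 for Rab3d, -0.182 to 0.054 for Rab3b, -0.368 to 0.170 for Rab3c, -0.192 to 0.006 for Rab27a and -0.035 to 0.701 for Rab39b. Over the 17 named Rab genes, 164 of 203 tested values under an alternative kept their direction and side of the threshold, 21 kept the direction and lost the threshold, 7 gained it and 11 turned. The median over a gene's probes has no test, and 16 of its 17 values kept their direction. Where 1 array was left out, limma assumes that the lone array of its group varies like the other 2. No paired analysis was possible because the groups share fewer than 2 replicate numbers. Depth here is signal over background, and dim genes such as Rab25, Rin1 and Unc13d depend on how background is removed.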
